A study of Mus musculus with 16 samples.

Results

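The nuclear genes for respiratory complexes III, IV and V and for cytochrome c, which carries electrons between complexes III and IV, were examined in the developing mouse palate. Members were the genes named by the platform annotation whose symbol begins with Uqcr, Atp5, Cox4, Cox5, Cox6, Cox7 or Cox8, or is Cyc1 or Cycs. Where a gene had several probe sets, the one with the highest average level was used. The rule found 44 of 18194 genes: 9 of complex III, 1 for cytochrome c, 17 of complex IV and 17 of complex V. Of these, 39 reached a log2 value of 4 in at least 3 arrays and were tested, as were 11116 genes, or 61.1%, in all. All members of complexes III and V and Cycs passed. The 5 that did not were all from complex IV: Cox4i2, Cox6a2, Cox7a1, Cox7b2 and Cox8b. Symbols are those of the array annotation, so that the alpha and beta subunits of the ATP synthase appear as Atp5a1 and Atp5b, now also called Atp5f1a and Atp5f1b.

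RNA of the palate mesenchyme from C57BL/6J mouse embryos was measured on 16 one-colour expression arrays. Mutants had the genotype Erk2 fl/fl; Wnt1-Cre, and controls were Erk2 fl/fl without Cre, although their titles call them wild-type. Each genotype had 3 arrays at embryonic day E13.5 and 5 at E14.5, where the titles place replicates 1 and 2 of each genotype in batch 1 and replicates 3, 4 and 5 in batch 2. The question of the study was what deleting Erk2, a MAP kinase that acts below RAS, from the neural crest does to metabolism in the palate. Both genotypes carried the floxed allele. The controls carried no Cre, so that an effect of the deletion and one of the Cre transgene cannot be told apart. Wnt1-Cre acts in neural crest cells, which give rise to most palate mesenchyme, and not in the mesoderm that forms muscle and vessels or in the covering epithelium. The number of embryos on an array is not given, and the labels speak of tissue in one place and of primary cells in another. The p-values therefore measure only the spread between these samples, which may be technical.

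Complex III takes electrons from ubiquinol and passes them to cytochrome c, complex IV passes them from cytochrome c to oxygen, and both pump protons across the inner mitochondrial membrane. Complex V, the ATP synthase, lets the protons flow back and makes ATP. Most subunits come from nuclear genes such as those described here, while the catalytic core of complex IV and parts of complexes III and V come from mitochondrial DNA. Several complex IV subunits exist as a broadly expressed form and a second form found in heart and skeletal muscle, lung or testis.

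The 11 palate mesenchyme markers measured lay between 4.47 (Osr2) and 11.89 (Vim, a mesenchymal filament protein) on the log2 scale. At E13.5 all 11 were lower in mutants (median −0.12), while 31.5% of all genes tested were above 0. Their mean was 8.79 to 8.83 in the E13.5 mutants and 8.90 to 9.01 in the controls. At E14.5, 4 of 11 were above 0, beside 56% of all. Of 8 cartilage markers tested, 7 were above 0 at E13.5 (median 0.68) and 4 at E14.5. The part of these shifts in the members' differences was not tested. The level of Erk2 itself was not analysed here. The median of an array over all probe sets lay from 3.39 to 3.44 in E13.5 arrays and from 1.63 to 1.66 in E14.5 arrays, so levels were compared between genotypes within a stage. Within E13.5 the medians lay higher in mutants over all probe sets (3.42 to 3.44 against 3.39 to 3.40), while the mean of the medians over the tested genes was lower in mutants (6.62 against 6.68). By sex-linked transcripts, every E13.5 array was female. In E14.5 batch 1 both mutants were female and both controls male, so genotype and sex cannot be told apart within that batch. In batch 2 the mutants were 1 female and 2 males, as were the controls.

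The promoters of 33 of the 44 members are in the RefSeq table for GRCm38.p6, and the 250 bases before the annotated start were searched on both strands. Nuclear genes of the respiratory chain are textbook targets of NRF1, of ETS factors such as GABP, and of YY1. The NRF1 core GCATGCGC was in 5 of 33 promoters (Atp5g2, Atp5k, Atp5l, Cox6a1 and Cycs), or 15.2%, and in 2.32% of 27025 promoters of all genes. The ETS motif CCGGAAGT was in 3 of 33 (Atp5h, Uqcr11 and Uqcrh), or 9.09%, and in 2.93% of all. The YY1 motif AAGATGGC was in 0 of 33 and in 1.59% of all. These matches describe letters in a window and not bound sites. Examples are printed 5′ to 3′ on the strand of the gene with the motif in capitals. Uqcr11 is one of the small complex III subunits with the largest genotype differences in batch 1. Atp5g2 was the complex V member with the smallest p at both stages. Cycs is the electron carrier between the complexes. In Atp5g2 a forward and a reverse match overlap, and both are in capitals.
Uqcr11, chr10:80406822-80407071, minus strand: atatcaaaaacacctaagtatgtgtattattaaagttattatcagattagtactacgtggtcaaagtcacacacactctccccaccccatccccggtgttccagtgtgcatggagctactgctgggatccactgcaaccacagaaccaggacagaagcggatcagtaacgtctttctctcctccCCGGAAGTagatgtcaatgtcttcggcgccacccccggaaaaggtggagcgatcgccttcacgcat
Atp5g2, chr15:102671048-102671297, minus strand: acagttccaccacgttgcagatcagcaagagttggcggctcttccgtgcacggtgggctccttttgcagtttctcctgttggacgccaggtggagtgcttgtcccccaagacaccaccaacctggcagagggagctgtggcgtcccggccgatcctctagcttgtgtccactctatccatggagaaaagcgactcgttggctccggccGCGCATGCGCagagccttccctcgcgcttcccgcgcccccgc
Cycs, chr6:50566570-50566819, minus strand: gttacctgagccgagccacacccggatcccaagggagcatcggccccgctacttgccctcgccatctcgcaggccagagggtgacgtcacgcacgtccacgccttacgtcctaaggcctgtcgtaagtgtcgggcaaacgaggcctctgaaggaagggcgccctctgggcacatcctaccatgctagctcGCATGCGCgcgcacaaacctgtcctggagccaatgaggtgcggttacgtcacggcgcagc
The Uqcr11 match covers bases 66 to 59 before the start, the Cycs match bases 60 to 53, and the overlapping matches of Atp5g2 bases 42 to 33.

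At E13.5 none of the 39 tested members passed an adjusted p of 0.05 (limma, Benjamini-Hochberg over 11116 genes), a call made for 0.099% of all genes tested. The members' differences, mutant minus control, ran from −0.20 (Cox7c) to 0.25 (Cox8c) on the log2 scale, and 35 of 39 lay within 0.1 of 0. Their median was 0.0053, beside −0.044 for all genes tested, and 20 of 39 were above 0, beside 31.5% of all. The median moderated standard error of a member was 0.055. Without single E13.5 arrays the median ran from −0.0089 (without mutant 3) to 0.025 (without mutant 2), and it was also below 0, at −0.0032, without control 2. With each array centred on its median over all probe sets, 14 of 39 were above 0 and the median was −0.032, and with each array centred on its median over the tested genes, a scaling added after the data were seen, 37 of 39 were above 0 and the median was 0.071. The side of 0 on which the members lay at E13.5 thus moved with the scaling, while no member was called under either. By part, 4 of 9 members of complex III, 7 of 12 of complex IV and 8 of 17 of complex V were above 0. The 5′ minus 3′ signal of Gapdh, a measure of RNA integrity, was −0.42, −0.41 and −0.36 in the E13.5 mutants. The E13.5 controls were all lower, at −0.44, −0.47 and −0.71, while the beta-actin signal overlapped. With an actin term 26 of 39 members were above 0 and the median was 0.022. The part of RNA integrity at E13.5 was not tested beyond this.

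At E14.5 the members lay slightly higher in mutants, and again none passed the test, which called 2.63% of all genes. The shift lay mainly in batch 1 (2 and 2 arrays), where genotype and sex cannot be told apart. There 33 of 39 members were above 0, with a median of 0.11. In batch 2 (3 and 3 arrays) 19 of 39 were, with a median of −0.00014. Over both batches the median difference was 0.043, beside 0.015 for all genes tested, and 34 of 39 members were above 0, beside 56% of all. Without control 2 the median was 0.026, and without mutant 1 it was 0.028, with 33 and 32 members above 0. All 9 members of complex III were above 0 (median 0.052), as were Cycs, 11 of 12 of complex IV (median 0.054) and 13 of 17 of complex V (median 0.039). In batch 2 alone 4 of 9 members of complex III, 8 of 12 of complex IV and 6 of 17 of complex V were above 0. Over both batches the differences ran from −0.038 (Atp5a1) to 0.23 (Cox7c), and 36 of 39 lay within 0.1 of 0. At an unadjusted p under 0.05 there was 1 member, Cox7a2l, beside 17.3% of all genes tested. The number that were higher in mutants at that limit was 4 without control 5 and 3 without mutant 3, beside 12% and 10.6% of all. It was 2 without control 1 or control 4, beside 10.2% and 10.4% of all. Centring on the median of all probe sets left 34 of 39 above 0, and centring on the tested genes 30. At an unadjusted p under 0.05 there was likewise 1 member at E13.5, Cox8c, beside 9.54% of all. Only 16 members were above 0 at both stages.

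**Figure D1:**
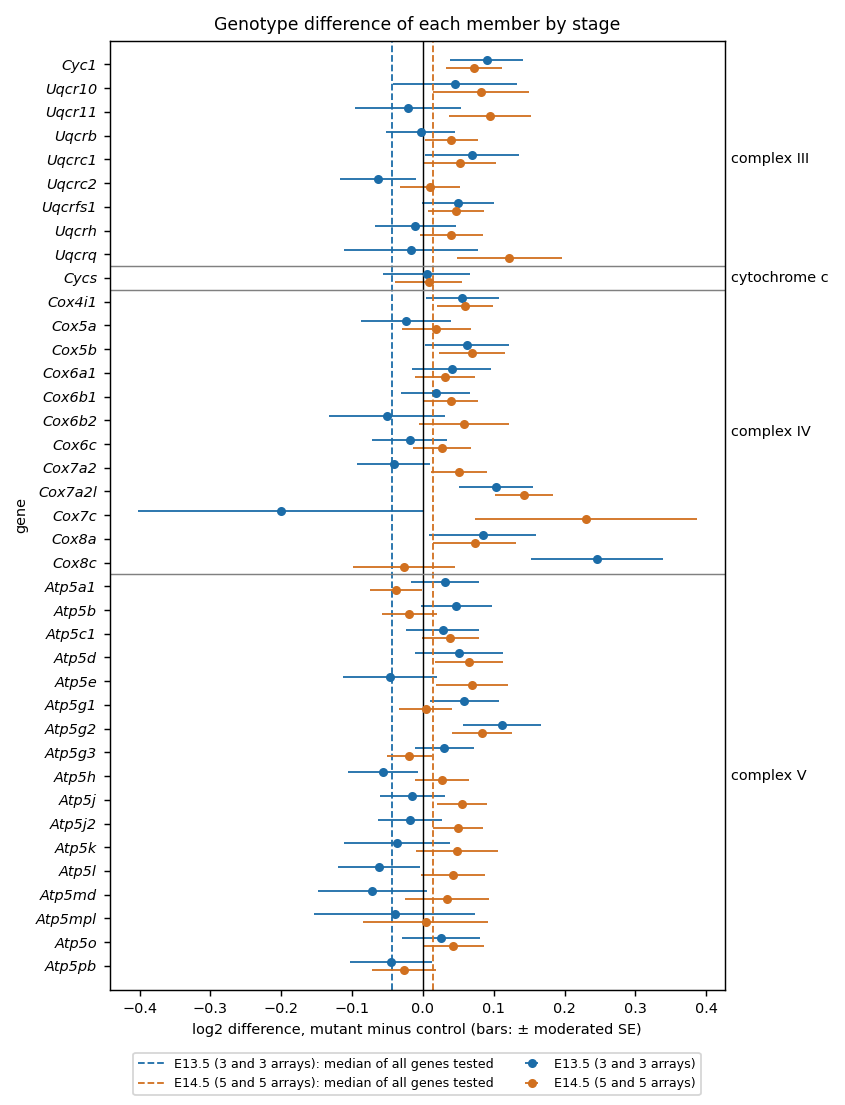
Log2 difference between mutant and control arrays for each of the 39 tested members, at E13.5 (3 and 3 arrays) and E14.5 (5 and 5 arrays), with bars of 1 moderated standard error and dashed lines at the median of all genes tested. Most members lie within 0.1 of 0 at both stages, and Cox7a2l stands to the right of 0 at both.

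The genotype effect at E14.5 minus that at E13.5 had a median of 0.037 over the 39 members and 0.061 over all genes tested. None of the members passed, beside 0.117% of all genes tested. The 1 member with an unadjusted p under 0.05, beside 10.4% of all, was Cox8c, which had E14.5 values between 0.81 and 1.07 and entered through the E13.5 arrays alone. Its difference between stages was therefore not read as a measurement, although Cox8c is counted among the 39 members here. Without single arrays the members' median ran from 0.015 (without E14.5 mutant 2) to 0.046, and it was from 0.016 to 0.022 without E13.5 control 1 or mutant 2 and without E14.5 control 2 or mutant 1. The direction depended on the scaling: 28 of 39 were above 0 as deposited (69.8% of all genes tested), 34 after centring on all probe sets and 10 after centring on the tested genes, with medians of 0.037, 0.077 and −0.045.

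In complex III the core subunits Uqcrc1 and Uqcrc2 and the redox subunits Cyc1 (cytochrome c1) and Uqcrfs1 (the Rieske iron-sulfur protein) differed little between genotypes. Cyc1 was at 9.72, 9.63 and 9.66 in the E13.5 mutants and at 9.60, 9.60 and 9.53 in the controls, and at E14.5 at 9.26, 9.22, 9.14, 9.22 and 9.21 in mutants against 9.17, 9.08, 9.16, 9.19 and 9.08 in controls. The 3 E13.5 mutants were all above the 3 controls, and the E14.5 arrays overlapped. The difference was 0.090 ± 0.051 at E13.5 (moderated SE, adjusted p = 0.596) and 0.072 ± 0.040 at E14.5 (adjusted p = 0.375). Uqcrc2 was at 10.32, 10.49 and 10.34 in the E13.5 mutants and 10.45, 10.47 and 10.42 in the controls, with overlap, a difference of −0.063 ± 0.054 (adjusted p = 0.757). Its difference at E14.5 was 0.010 ± 0.042.

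The accessory subunits Uqcrq, Uqcr10 and Uqcr11, small proteins at the membrane part of complex III, had the smallest p-values of the members for the difference between the E14.5 batches, although that of the dim Cox7c was larger in size (−0.56 ± 0.29). Uqcrq was at 9.16 and 9.03 in the batch 1 mutants, against 8.69 and 8.73 in the batch 1 controls. In batch 2 it was at 8.87, 8.90 and 8.82 in mutants against 8.92, 8.85 and 8.995 in controls. The 2 batch 1 controls were the lowest of the 10 E14.5 arrays and the 2 batch 1 mutants the highest, while the batch 2 groups overlapped. The difference in batch 1 was 0.39 ± 0.07, a fold of 1.31 (adjusted p = 0.0479, limma), and in batch 2 it was −0.055 ± 0.061 (adjusted p = 0.790). Uqcrq was the only member that passed in batch 1, where 0.387% of all genes did. The difference between the batches' effects, 0.44 ± 0.10, had an adjusted p of 0.288. The call in batch 1 was lost under 20 of the 28 alternatives, such as leaving out mutant 1 (0.32, adjusted p = 0.315), control 1 (0.37, adjusted p = 0.118), control 2 (0.40, adjusted p = 0.127) or any 1 of the E13.5 arrays, which only share the estimate of spread (highest adjusted p 0.0764). It was also lost with a sex term (0.44, adjusted p = 0.134), which drew on batch 2 alone. The mean over the 4 probe sets of Uqcrq, of which 1 passed the filter, lost it as well (0.083, adjusted p = 0.733). At E13.5 Uqcrq was at 9.19, 9.05 and 9.16 in mutants against 9.15, 9.07 and 9.22 in controls, and over both E14.5 batches its difference was 0.12 ± 0.07 (adjusted p = 0.422).

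Uqcr10 was at 9.19 and 9.12 in the batch 1 mutants and 8.79 and 8.89 in the controls, and in batch 2 at 8.92, 8.98 and 9.04 in mutants against 9.02, 9.03 and 9.11 in controls. Its mutants were all above the controls in batch 1 and overlapped with them in batch 2. The difference was 0.32 ± 0.07 in batch 1 (adjusted p = 0.064) and −0.074 ± 0.059 in batch 2. Its 2 other probe sets gave 0.33 and 0.15 in batch 1. Uqcr11, whose promoter is printed above, was at 9.67 and 9.53 in the batch 1 mutants and 9.31 and 9.33 in the controls. In batch 2 it was at 9.34, 9.42 and 9.46 in mutants against 9.39, 9.39 and 9.53 in controls. The batch 1 difference was 0.28 ± 0.07 (adjusted p = 0.075) and that of batch 2 was −0.028. Uqcrh, the hinge subunit, was 0.16 ± 0.06 higher in batch 1 (adjusted p = 0.182) and at −0.040 in batch 2.

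**Figure D2:**
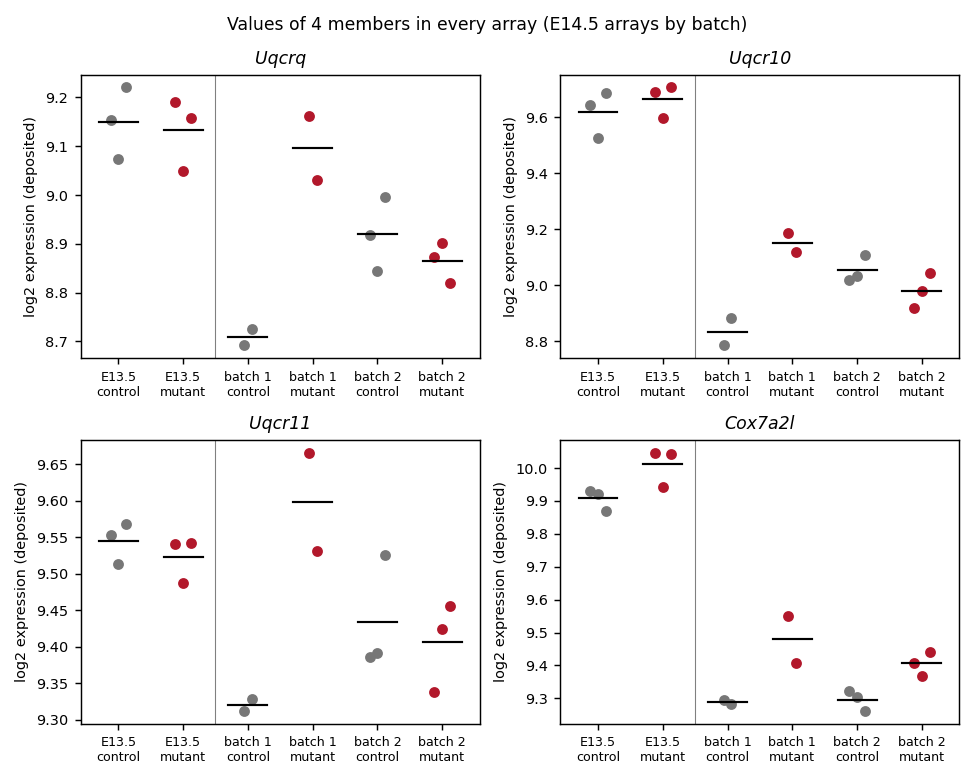
Deposited log2 values of Uqcrq, Uqcr10, Uqcr11 and Cox7a2l in all 16 arrays, with controls in grey, mutants in red and a line at the mean of each group, and with the E14.5 arrays split by batch. The 3 complex III subunits separate the genotypes in batch 1 alone, and Cox7a2l has every mutant above every control at E13.5 and in both E14.5 batches.

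Cycs, the somatic cytochrome c, was at 10.85, 11.08 and 11.02 in the E13.5 mutants and 11.04, 10.99 and 10.91 in the controls. At E14.5 it was at 11.20, 11.23, 11.27, 11.20 and 11.16 in mutants against 11.18, 11.25, 11.15, 11.25 and 11.20 in controls. The groups overlapped at both stages, with differences of 0.0053 ± 0.061 (adjusted p = 0.988) and 0.0080 ± 0.047 (adjusted p = 0.953). Its probe sets disagreed: 2 dimmer ones gave 0.11 and 0.17 at E14.5 and 0.23 and 0.22 in batch 1, where the brightest was at 0.00031. In batch 2 the 2 dimmer ones were at 0.038 and 0.13. In a limma fit over probe sets, the one at 0.17 had an unadjusted p of 0.0018 at E14.5 (adjusted p = 0.074). That p was smaller than the 0.0043 of the Cox7a2l probe set used (adjusted p = 0.112).

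In complex IV, Cox7a2l was the member with the smallest p at E14.5 in the probe sets used. It encodes a protein related to the COX7A subunits. At E13.5 it was at 10.05, 9.94 and 10.04 in mutants against 9.93, 9.92 and 9.87 in controls. At E14.5 it was at 9.55, 9.41, 9.41, 9.37 and 9.44 in mutants against 9.30, 9.28, 9.32, 9.30 and 9.26 in controls. Every mutant was above every control at each stage. The difference was 0.10 ± 0.05 at E13.5 (adjusted p = 0.558) and 0.14 ± 0.04 at E14.5, a fold of 1.10 (adjusted p = 0.081), so the call was missed at both. It was 0.19 ± 0.06 in batch 1 (adjusted p = 0.154) and 0.11 ± 0.05 in batch 2 (adjusted p = 0.396). With an intensity trend and robust variance its adjusted p at E14.5 was 0.0419. All 3 of its probe sets were higher in mutants, at 0.10, 0.13 and 0.18 at E13.5 and 0.14, 0.11 and 0.17 at E14.5. Arrays without overlap were found for 3 members at E13.5 (Atp5b, Cox7a2l and Cyc1, mutants higher), or 7.69%, beside 17.9% of all genes tested, and for Cox7a2l alone at E14.5, beside 4.41%.

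Cox8c, a testis form of subunit 8, passed the filter through the E13.5 arrays alone. It was at 5.36, 5.13 and 5.52 in the E13.5 mutants and 5.17, 4.96 and 5.14 in the controls, which overlapped, and between 0.81 and 1.07 in all E14.5 arrays. The E13.5 difference was 0.25 ± 0.09 (adjusted p = 0.432). Cox7c was represented by a dim probe set, at 3.72 to 5.49 over the 16 arrays, and had the widest spread of the members (residual SD 0.26). Its differences were −0.20 ± 0.20 at E13.5 and 0.23 ± 0.16 at E14.5.

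The broadly expressed forms of the paired complex IV subunits were measured in every array. Cox4i1 ranged from 10.92 to 11.27, Cox6a1 from 11.92 to 12.13, Cox6b1 from 11.21 to 11.43, Cox7a2 from 11.08 to 11.43 and Cox8a from 9.14 to 10.56. Their genotype differences ran from −0.041 (Cox7a2) to 0.084 (Cox8a) at E13.5 and from 0.031 (Cox6a1) to 0.073 (Cox8a) at E14.5, with adjusted p values from 0.776 to 0.938 and 0.472 to 0.761. Cox6b2, the testis form of subunit 6B, was at 5.13 to 5.59 and differed by −0.050 ± 0.082 at E13.5 and 0.057 ± 0.063 at E14.5. Cox5b, which has no paired form among the members, differed by 0.069 ± 0.046 at E14.5.

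The members below the filter included the 3 muscle forms of complex IV subunits, and 2 of these had their highest E14.5 value in the array with the highest skeletal muscle markers. Cox6a2 was at 4.07, 3.99 and 4.29 in the E13.5 mutants and 3.93, 3.59 and 3.78 in the controls, without overlap. At E14.5 it was at 3.06, 2.15, 2.17, 2.17 and 2.48 in mutants against 1.76, 2.46, 2.01, 2.31 and 2.31 in controls, with mutant 1 highest and control 1 lowest. Without a filter its differences were 0.35 ± 0.22 at E13.5 (adjusted p = 0.556) and 0.50 ± 0.26 in batch 1 (adjusted p = 0.484). Cox8b was at 3.39, 3.07 and 3.68 in the E13.5 mutants and 3.18, 3.05 and 3.10 in the controls. At E14.5 it was at 2.70, 1.71, 1.48, 1.52 and 1.57 in mutants against 1.03, 1.62, 1.12, 1.76 and 2.00 in controls, again with mutant 1 highest. Cox8b reached a log2 value of 4 in no array. Controls 1 and 3 were lowest, below the E14.5 array medians of 1.63 to 1.66, so the order of the low values was not read. The batch 1 difference of Cox8b, which includes such low values, was 0.88 ± 0.31 (adjusted p = 0.279) and its batch 2 difference −0.10 ± 0.25. Cox7a1, the third muscle form, differed by −0.11 ± 0.10 at E13.5 and 0.0031 ± 0.12 in batch 1. Cox4i2, the lung form, differed by 0.15 ± 0.09 and −0.11 ± 0.07 at the stages, and Cox7b2 lay between 0.63 and 1.54.

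The mean of the 25 skeletal muscle markers was 6.33 to 6.63 in the E13.5 mutants and 5.70 to 6.05 in the controls, without overlap. At E14.5 it was 5.18 to 6.53 in mutants, highest in mutant 1, and 4.51 to 5.82 in controls, lowest in controls 1 and 3. Of the 24 tested, 24 were above 0 at both stages, with medians of 0.60 and 0.49, and none was called. Within E14.5 the shift lay mainly in batch 1, with a median of 1.11 and 24 of 24 above 0, against 0.12 and 19 of 24 in batch 2. None was called in either batch, and the difference between the batches had a median of 1.03. The batch 1 marker means were 6.53 and 5.60 in mutants against 4.51 and 5.58 in controls, so mutant 2 and control 2 were alike. The defining markers Myod1 and Myog averaged 5.24 and 8.06 in the E13.5 mutants and 4.67 and 7.32 in the controls. The part of muscle RNA in the values of Cox6a2 and Cox8b was not tested, and more muscle cells and more RNA per cell cannot be told apart in these bulk samples.

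**Figure D3:**
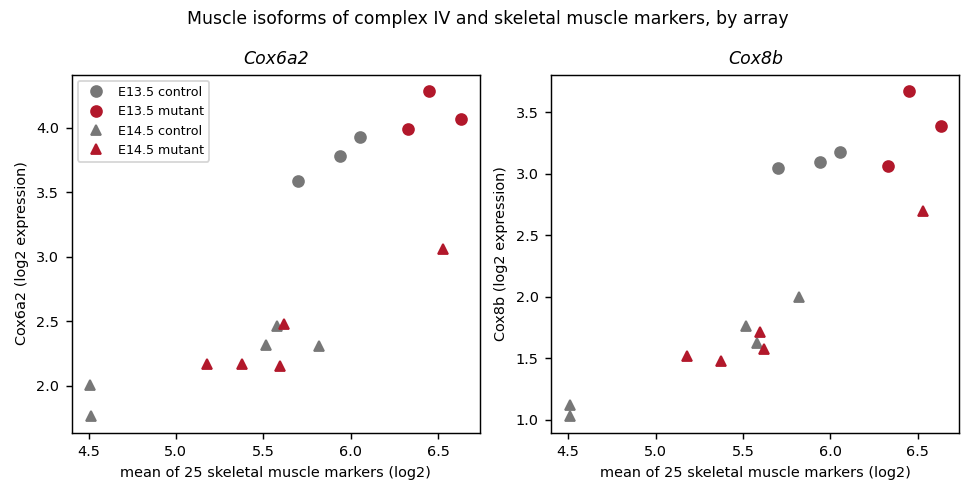
Deposited log2 values of the muscle isoforms Cox6a2 and Cox8b against the mean of 25 skeletal muscle markers, 1 point for each of the 16 arrays, with circles for E13.5, triangles for E14.5, grey for controls and red for mutants. At E14.5 mutant 1 is highest on both axes, and controls 1 and 3 have the lowest marker means, near 4.51.

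In complex V the catalytic subunits Atp5a1 (alpha) and Atp5b (beta) lay close to 0 in the probe sets used. Atp5b was at 11.06, 10.98 and 10.98 in the E13.5 mutants and 10.96, 10.97 and 10.95 in the controls. The mutants were all above the controls, by a mean of 0.047 ± 0.050, and at E14.5 the difference was −0.019 ± 0.039 with overlap. Atp5a1 differed by 0.031 ± 0.048 and −0.038 ± 0.037. Its other probe sets past the filter, at mean levels of 10.29 and 5.14, gave 0.16 and 0.059 at E13.5 and 0.053 and 0.27 at E14.5. The central stalk subunits Atp5c1, Atp5d and Atp5e, which turn within the catalytic head, were at 0.028, 0.051 and −0.046 at E13.5 and at 0.039, 0.064 and 0.069 at E14.5.

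Of the 3 genes that encode the same c subunit of the proton-driven ring, Atp5g2 had the smallest p of complex V at both stages. It was at 9.80, 9.68 and 9.80 in the E13.5 mutants and 9.69, 9.63 and 9.63 in the controls, and at E14.5 at 9.38, 9.43, 9.35, 9.40 and 9.36 in mutants against 9.25, 9.23, 9.33, 9.41 and 9.29 in controls. At E13.5 only mutant 2 lay among the controls, and at E14.5 only control 4 lay above the lowest mutant. The differences were 0.11 ± 0.05 (adjusted p = 0.545) and 0.084 ± 0.042 (adjusted p = 0.332). Atp5g1 differed by 0.059 ± 0.048 at E13.5 (adjusted p = 0.750) and 0.0042 ± 0.038 at E14.5. Its values were 9.88, 9.88 and 9.85 in the E13.5 mutants and 9.85, 9.79 and 9.78 in the controls. Atp5g3, the member with the narrowest spread (residual SD 0.023), differed by 0.030 ± 0.041 and −0.019 ± 0.032.

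The peripheral stalk, which holds the catalytic head still, includes Atp5o, Atp5pb, Atp5h and Atp5j. Atp5j was at 10.66, 10.66, 10.62, 10.61 and 10.64 in the E14.5 mutants and 10.57, 10.56, 10.62, 10.55 and 10.61 in the controls. The groups overlapped through controls 3 and 5, and the difference was 0.056 ± 0.035 (adjusted p = 0.448). Atp5o, Atp5pb and Atp5h differed by 0.043, −0.026 and 0.027 at E14.5. Their other probe sets past the filter gave 0.11, 0.052 and 0.076. The small membrane subunits Atp5j2, Atp5k, Atp5l, Atp5md and Atp5mpl were at −0.018, −0.036, −0.062, −0.071 and −0.040 at E13.5 and at 0.050, 0.049, 0.042, 0.034 and 0.0043 at E14.5.

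The E14.5 batches differed in how the members behaved as a group. In batch 1 (2 and 2 arrays), 33 of 39 members were above 0 with a median of 0.11, beside 55.4% and 0.022 for all genes tested. In batch 2 (3 and 3 arrays), 19 of 39 were above 0 with a median of −0.00014, beside 53.2% and 0.0087. In batch 1, 24 members exceeded 0.1, and in batch 2 there were 2, Cox7c and Cox7a2l. At an unadjusted p under 0.05, 14 members were higher in batch 1 mutants and none lower, or 35.9%, beside 12.3% of all genes tested that were higher. These were 4 of complex III (Uqcr10, Uqcr11, Uqcrh and Uqcrq), 5 of complex IV (Cox4i1, Cox5b, Cox7a2, Cox7a2l and Cox8a) and 5 of complex V (Atp5d, Atp5e, Atp5g2, Atp5l and Atp5o). In batch 2 Cox7a2l and Cox7c were, beside 12.6% of all in either direction, and none was called, beside 0.891% of all. The batch 1 counts moved with the scaling. After centring on all probe sets 33 of 39 were above 0 (median 0.13), and 16 were higher at that limit, beside 14.1% of all. After centring on the tested genes 29 of 39 were above 0 (median 0.082), and 7 were higher at that limit, beside 8.56% of all.

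Batch 1 mutants were above batch 1 controls without overlap for 25 members, or 64.1%, beside 27.6% of all genes tested, and below for 3 (Atp5b, Atp5pb and Cox8c), beside 18.9%. In batch 2 the count was 1, Cox7a2l, or 2.56%, beside 14.8% in either direction. Cox8c lay between 0.81 and 1.07 in these arrays, so its order there was not read. In complex V the catalytic subunits Atp5a1 and Atp5b were at −0.069 and −0.058 in batch 1. The other probe sets of Atp5a1 past the filter gave 0.022 and 0.21, so its sign depended on the probe set. The 3 ring genes were on both sides of 0, with Atp5g1, Atp5g2 and Atp5g3 at 0.071, 0.16 and −0.021. The peripheral stalk genes Atp5h, Atp5j, Atp5o and Atp5pb were too, at 0.015, 0.094, 0.15 and −0.083. Other probe sets past the filter gave 0.18 for Atp5h, 0.16 for Atp5o and 0.11 for Atp5pb, so the sign of Atp5pb depended on the probe set. The difference between the batches' effects had a median of 0.11 over the members and 0.018 over all genes tested. It was above 0 for 30 of 39, beside 53.9% of all, and 8 had an unadjusted p under 0.05 (Atp5d, Atp5e, Atp5o, Cox8a, Uqcr10, Uqcr11, Uqcrh and Uqcrq), or 20.5%, beside 7.12% of all genes that were higher in batch 1. Without mutant 1 the median of this difference over the members was 0.097, and without control 2 it was 0.070. Without mutant 3 the count at an unadjusted p under 0.05 was 5, beside 5.76% of all. It was 11 after centring on all probe sets, beside 8.72% of all, and 6 after centring on the tested genes, beside 5.21%. None passed after adjustment, nor did any of the 11116 genes (0%).

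**Figure D4:**
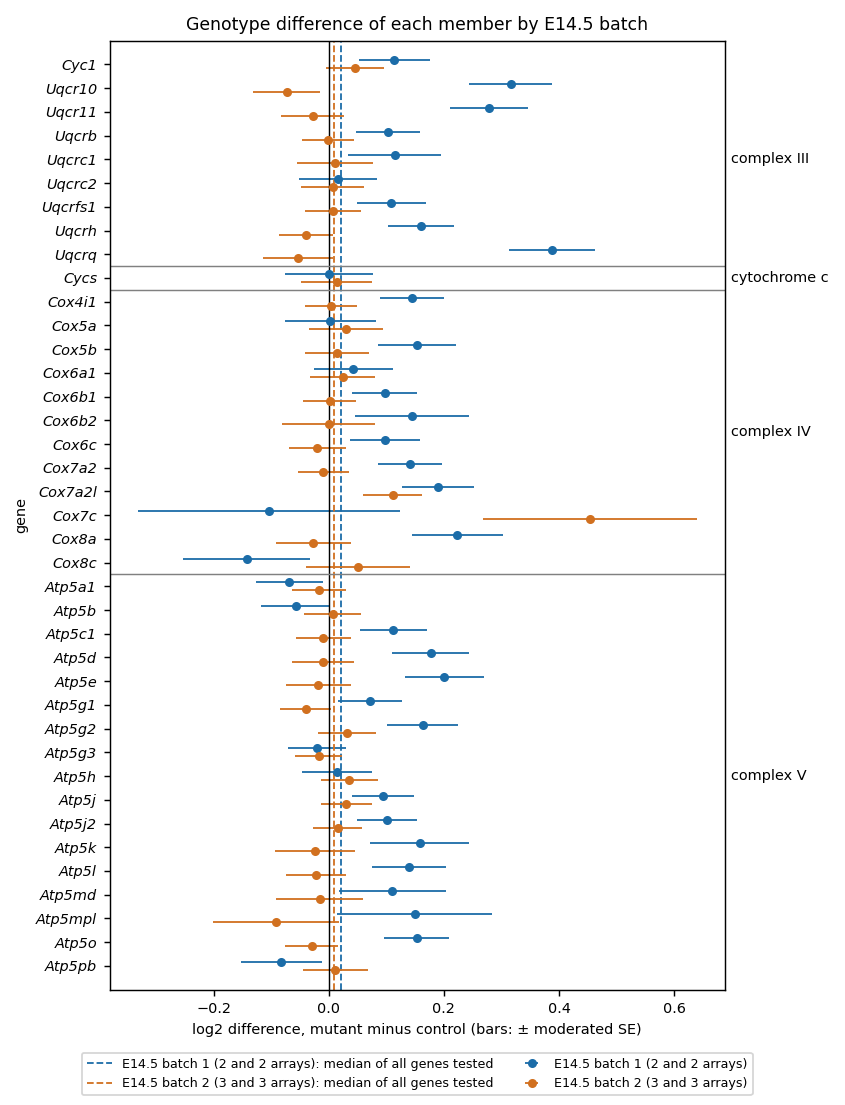
Log2 difference between mutant and control arrays for each of the 39 tested members within E14.5 batch 1 (2 and 2 arrays) and batch 2 (3 and 3 arrays), with bars of 1 moderated standard error and dashed lines at the median of all genes tested. In batch 1, 33 members lie above 0, led by Uqcrq, Uqcr10 and Uqcr11, and in batch 2 the members scatter about 0 apart from Cox7c and Cox7a2l.

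Single arrays stood out within the E14.5 groups. Mutant 1 had the highest value of all 10 E14.5 arrays for 20 of 39 members, and control 2 the lowest for 14 and control 1 for 9. The mean of the 39 members was 9.88 and 9.86 in mutants 1 and 2, and 9.78 and 9.75 in controls 1 and 2. In batch 2 it was 9.81, 9.81 and 9.84 in mutants against 9.81, 9.79 and 9.84 in controls. Control 5, whose mean lay within the range of the mutants, had the highest control value for 18 members, and also the lowest 5′ minus 3′ signal of the E14.5 arrays for beta-actin (−1.61) and Gapdh (−0.58), a measure of RNA integrity. Mutant 1 also had the highest muscle marker mean at E14.5, and the muscle markers were higher in batch 1 mutants by a median of 1.11. Their means were 6.53 and 5.60 in mutants 1 and 2, and 4.51 and 5.58 in controls 1 and 2. Mutant 2 and control 2 were thus alike in these markers. Without mutant 1 the batch 1 median was 0.099, with 33 of 39 above 0. Without control 2 it was 0.093, with 31 above 0. The part of sex, muscle RNA and RNA integrity in these differences was not tested beyond these values. With a sex term the batch 1 median was 0.13 and 31 of 39 were above 0. That term drew on batch 2 alone, since sex and genotype coincide in batch 1, so it cannot test the part of sex there.

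**Figure D5:**
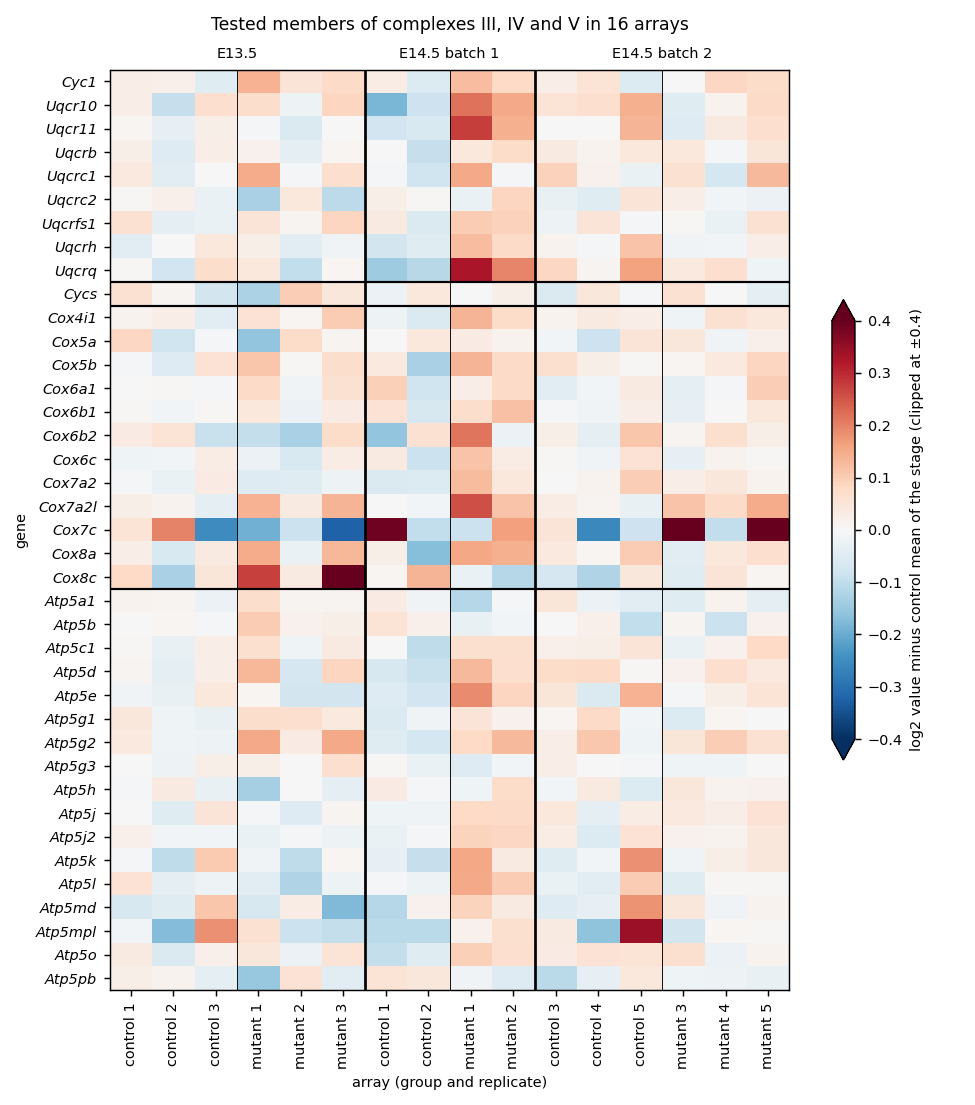
Deposited log2 value of each of the 39 tested members in the 16 arrays, minus the mean of the control arrays of the same stage, as colour from blue (lower) to red (higher), clipped at 0.4 on either side, with members grouped as complex III, cytochrome c, complex IV and complex V. The columns of mutants 1 and 2 in E14.5 batch 1 are mostly red and those of controls 1 and 2 mostly blue, and batch 2 shows no such split except in Cox7a2l.

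Other mitochondrial gene lists are given for comparison, by batch and stage. The shares of all genes tested to set beside their counts above 0 were 31.5% at E13.5, 56% at E14.5, 55.4% in batch 1 and 53.2% in batch 2. Calls were made for 0.099% of all genes at E13.5 and 2.63% at E14.5. Of complex I, which passes electrons from NADH to ubiquinone, 34 of 34 tested genes were above 0 in batch 1 (median 0.14) and 15 of 34 in batch 2 (median −0.015). At E14.5 as a whole 32 of 34 were above 0 and 1 was called, Ndufv1, at 0.15 ± 0.03 (adjusted p = 0.0341). Of the mitochondrial ribosome, 75 of 76 were above 0 in batch 1 (median 0.17) and 46 of 76 in batch 2 (median 0.022), and 2 were called higher at E14.5, among them Mrpl21 at 0.21 ± 0.05 (adjusted p = 0.0334). The cytosolic ribosome had medians nearer to 0, at 0.056 in batch 1 and −0.00021 in batch 2, with 37 and 23 of 48 above 0. Of 25 assembly factors of complexes III, IV and V, 20 and 17 were above 0 in the batches (medians 0.086 and 0.024), and none was called at either stage. Of the regulators of mitochondrial genes, 1 of 12 was above 0 at E13.5 and 8 at E14.5, without a call, and Ppargc1a, a coactivator of mitochondrial biogenesis, was at −0.28 ± 0.12 at E13.5 (adjusted p = 0.471). Complex II, the entry point from succinate, had 3 of 4 above 0 at E13.5 and 2 of 4 at E14.5, and the ATP and phosphate carriers and porins 5 and 4 of 7, without a call. Oral epithelium markers were higher at E14.5, with 16 of 16 above 0, 8 called and means of 7.96 to 8.26 in mutants against 7.61 to 7.79 in controls. Their part in the members' differences was not tested.

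The members varied little between arrays. Their median residual SD was 0.052, beside 0.11 for all genes tested, and 36 of 39 lay below the median gene. Most were also bright, with a median percentile of level of 98.7 in the E13.5 controls and 98.3 in the E14.5 controls. The dim Cox7c was at percentile 95.5 of spread. The part of level in the small spread was not tested. Of the 20 members with more than 1 probe set past the filter, those probe sets shared a sign in 12 at E13.5, 14 at E14.5, 15 in batch 1 and 12 in batch 2. Of all 67 probe sets of members past the filter, 58 were above 0 in batch 1 and 32 in batch 2.

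Between the stages the deposited values of the controls were lower at E14.5 for 33 of 39 members, with a median change of −0.31, beside −0.63 for all genes tested and −1.75 for the array medians. In mutants the median was −0.26, with 33 below 0. After centring on the array median the members' median change was 1.44 and that of all genes tested 1.12, so the sign of the change follows the scaling, and it carries the shift between stages. As deposited, the controls were higher at E14.5 for 6 members: Atp5h, Atp5md, Atp5pb, Cox5a, Cycs and Uqcrc2. Atp5md was among them, at 0.77 as deposited and 2.52 after centring. Cox8c, which reached a log2 value of 4 in no E14.5 array and passed through the E13.5 arrays alone, is counted in these numbers. Its own change between stages was not read.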

How the data were processed

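Expression was measured on 16 one-colour Affymetrix arrays, and the deposited table holds log2 values for 45101 probe sets that the authors made with GCRMA, a tool named without a version per the submitters' processing notes. It is not given in the sources used here whether both stages were normalized together. Of the probe sets, 34958 had 1 gene in the platform annotation, and 932 had several and were not used. Genes with at least 3 arrays at a log2 value of 4 were tested in limma 3.58.1 (R 4.3.3), with lmFit and eBayes on the deposited values. The model had a term for each of the 4 groups and one for the E14.5 batches (11 residual degrees of freedom), and for values within batches 6 groups (10 residual degrees of freedom). Adjusted p-values are Benjamini-Hochberg over 11116 genes, errors are moderated standard errors, and a gene was called under 0.05. The members, gene lists and tests were chosen with earlier results of these data known. Values are given for members called, the 2 with the smallest p in each complex at each stage, and paired isoforms. Genes of other lists are the called or smallest-p genes. Cox7c, Uqcr10, Uqcr11 and other members were added after their values were seen. All 44 members matched the RefSeq gene table by gene ID. For arrays, their number limits the precision. Alternatives covered scaling, filter, probe set choice, variance model, batch and sex terms, the replicate number as a block and each array left out in turn. Scripts were tested on simulated arrays. Figures were drawn with matplotlib 3.10.9 in Python 3.11.15.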

Additional observations from a re-analysis of the deposited data

Results flagged for a closer look

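In 3 of 88 groups of 5 E14.5 arrays, or 3.41%, 1 array stood further from the others than Dixon's 95% limit, and chance does so in about 1 in 20. Atp5l, a small membrane subunit of the ATP synthase, was at 10.1954 in E14.5 control 5, above the next control at 10.09. Cox7a2 was at 11.2626 in E14.5 mutant 1, above the next mutant at 11.18. The muscle isoform Cox8b was at 2.70 in E14.5 mutant 1, above the next mutant at 1.71.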

How the results depend on the processing

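At E13.5 and for the difference between stages, no member was called under any alternative run. Centring on the tested genes moved the median difference at E13.5 to 0.071 and that of the difference between stages to −0.045. At E14.5, 1 member was called with an intensity trend and robust variance, and 1 in batch 1 alone, where the median was 0.11. Within batch 1 the count of called members was 1 as reported, 2 with arrays centred on their medians, 3 with the stricter filter of log2 6 and 3 with an intensity trend and robust variance. It was 0 after centring on the tested genes, quantile normalization, no filter, the mean over probe sets, array weights, the stage alone, the sex term, or without E14.5 controls 1 and 3, and leaving out single arrays gave 0 to 1. Small differences changed sign: Uqcrc2 at E13.5 was at 0.0021 after centring on the tested genes and 0.0039 with the mean over probe sets. Cycs at E13.5 was at −0.032 with centred arrays, −0.0011 with array weights and −0.0085 with an actin term, and between −0.041 and 0.071 without single arrays. Cycs at E14.5 was at −0.0080 after centring on the tested genes, −0.012 with the sex term and −0.019 without controls 1 and 3, and between −0.0079 and 0.021 without single arrays. The causes were not tested. Over all genes tested, the number called was 11 at E13.5 and 6 to 85 under the alternatives, 292 at E14.5 and 64 to 371, 13 for the difference between stages and 3 to 40, 43 in batch 1 and 0 to 133, 99 in batch 2 and 8 to 130, and 0 for the difference between batches and 0 to 2. The deviations of same-numbered arrays from their group means had correlations of −0.27 to 0.17. With 2 or 3 arrays per group and batch, such correlations cannot show whether the replicate numbers pair the samples. A replicate block in place of the batch term left the members called at 0 at both stages. The medians were then 0.0053 and 0.043, and the median difference between stages was 0.037. Few arrays per group, 2 in batch 1, limit every comparison, and all E14.5 batch 1 values are confounded with sex. The scaling at E13.5 and the shift between stages limit what the sign of a difference under 0.1 shows.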
